A study of Mus musculus with 2 samples.

Results

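Heat shock proteins, J proteins and the chaperonin TRiC are the folding machinery of the cell, and their genes were followed here in the newborn mouse thymus. Members were the protein-coding genes whose GENCODE symbol names an HSP90 (Hsp90), an HSP70 or its HSP110 relative (Hspa, Hsph), a small heat shock protein (Hspb), a mitochondrial chaperonin (Hspd1, Hspe1), a J protein (Dnaja, Dnajb, Dnajc) or a TRiC subunit (Tcp1, Cct). Of 80 such genes in GENCODE M21, 79 were in the tables of both libraries, out of 43346 mouse genes. They comprised 3 HSP90 genes, 13 HSP70 genes, 10 small and mitochondrial heat shock protein genes, 45 J protein genes and 8 TRiC genes. The symbols chose the members, and no measured value did.

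The study holds 1 group, thymus of C57/Bl6 mice (strain B6NCrl) on postnatal day 0, in 2 libraries. Replicate 2 is pup 7 and replicate 1 is pup 6 by the labels, with 1 donor entry for both, no sex collected and no treatment or transgene named. Each library was made from 13 pg of total RNA longer than 200 nt, which the labels call a single cell-equivalent, so it is a dilution of whole-tissue RNA and not a sorted cell. With 1 group and 2 libraries there is no comparison of conditions and no p-value; each gene is given by its value in each library, and a mean ± SD has n = 2.

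Chaperones of the HSP70 family bind unfolded stretches of protein in a cycle of ATP hydrolysis. J proteins deliver clients and start the hydrolysis, HSP110 proteins exchange the nucleotide, and HSP90 takes over late clients such as kinases and steroid receptors. TRiC is a ring of related subunits in the cytosol, known for folding actin and tubulin, while HSP60 (Hspd1) and its lid HSP10 (Hspe1) do similar work in mitochondria. Part of these genes is constitutive. Others are induced by heat shock factor, which binds repeated GAA units (the heat shock element), or by the unfolded protein response of the endoplasmic reticulum (ER), through the ER stress response element.

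Promoter sequences are shown first because the letters of the heat shock element stand both in genes that were read strongly and in well-known inducible genes that were at or near 0, while those of the ER element stand in ER genes that were read in both libraries. RefSeq promoter windows of build GRCm38.p6, which run from 250 bases before a gene's start to 50 after it, were matched for 64 of the 79 members, in 83 windows. Capitals mark the matched letters, and bases are given 5′ to 3′ on the gene's own strand. For the heat shock element, GAANNTTC or TTCNNGAA was searched as a pair and GAANNTTCNNGAA or TTCNNGAANNTTC as a triple. Each form includes its reverse complement, and a triple holds overlapping pairs. Hspe1 is at chr1:55088019-55088116 (+), Dnajb6 at chr5:29735832-29735884 (+), Hspb1 at chr5:135887782-135887849 (+), Dnaja4 at chr9:54699449-54699534 (+) and Hspa1a at chr17:34972233-34972280 (-).
Hspe1: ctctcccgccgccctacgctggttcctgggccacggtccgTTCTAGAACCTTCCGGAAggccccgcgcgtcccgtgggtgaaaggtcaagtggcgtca
Dnajb6: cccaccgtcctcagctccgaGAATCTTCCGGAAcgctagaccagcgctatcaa
Hspb1: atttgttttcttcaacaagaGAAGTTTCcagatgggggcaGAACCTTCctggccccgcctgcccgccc
Dnaja4: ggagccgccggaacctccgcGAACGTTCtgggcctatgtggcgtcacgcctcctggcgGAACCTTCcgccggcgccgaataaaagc
Hspa1a: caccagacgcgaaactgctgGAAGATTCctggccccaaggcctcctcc

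The Hspe1 stretch is also in the Hspd1 window on the other strand, before the RefSeq start used for that window. In GENCODE M21 the genes stand head to head and overlap by 112 bases on chromosome 1, and the stretch then lies inside Hspd1. The pair occurred in 18 of 64 members (28.1%, against 17.0% of all genes with a window). By window the shares of the pair were 24.1% of member windows and 15.1% of all 32851 windows. A triple was found in Hspd1, Hspe1, Dnajb6 and Hsph1 (6.25% of member genes with a window, against 0.662% of all such genes). By window the shares were 7.23% of member windows and 0.603% of all windows. The member windows repeat sites, since Hspd1 and Hspe1 share a stretch and Dnajb6 and Hsph1 each have overlapping windows. Hsph1's lay after the start and is not shown.

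The ER stress response element was searched as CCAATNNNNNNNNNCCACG or its reverse complement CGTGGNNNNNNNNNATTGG. It was found in 3 members, all encoding proteins of the ER: Hspa5 at chr2:34772013-34772055 (+), Hsp90b1 at chr10:86705521-86705668 (-) with a match in each orientation, and Dnajc3 at chr14:118937815-118937857 (+).
Hspa5: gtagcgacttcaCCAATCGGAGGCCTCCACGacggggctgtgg
Hsp90b1: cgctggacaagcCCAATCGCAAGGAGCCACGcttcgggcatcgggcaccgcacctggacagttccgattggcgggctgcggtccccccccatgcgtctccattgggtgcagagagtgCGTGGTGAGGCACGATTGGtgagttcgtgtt
Dnajc3: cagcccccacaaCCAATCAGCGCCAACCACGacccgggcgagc

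These matches covered 3.61% of member windows, against 0.119% of all windows. A match describes letters in a window and was not tested as a binding site. Windows for Hspa8, Hsp90aa1 and Hsp90ab1 were not used here.

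The libraries held 31902773 mouse expected counts in replicate 2 and 25999043 in replicate 1, with 3.27% and 3.72% of all counts in spike-ins. An expected count is the authors' estimate of the reads of a gene; TPM divides it by effective length and was rescaled to sum to 1000000 over mouse genes. All 14 thymocyte marker genes were read in both libraries, with summed TPM of 15252 in replicate 2 and 15555 in replicate 1, and 9 of 11 thymic epithelial markers were as well. Summed TPM of heart and skeletal muscle markers was 468 in replicate 2 and 1603 in replicate 1, and of erythroid markers 9426 in replicate 2 and 3528 in replicate 1. In bulk RNA, fewer cells of a type and less RNA per cell cannot be told apart. Intervals and limits below cover counting error only, and a gene at 0 could still hold up to 3 counts, which is 0.0940 CPM (mouse counts scaled to a total of 1000000) in replicate 2 and 0.115 CPM in replicate 1.

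The 79 members together held a near-equal share of mouse TPM in each library. Their summed TPM was 8062 in replicate 2 and 8048 in replicate 1, or 0.806% and 0.805% of mouse TPM, with a mean of 8055 ± 9.55. Hspa14 (155 TPM in replicate 2 and 0 in replicate 1) and Cct6a (272 and 153 TPM), described below, lie outside these sums. Both were higher in replicate 2, so the match holds for the 79 genes only. The total over the 79 was the sum of unequal parts. The J protein sum was 2787 TPM in replicate 2, against 2117 TPM in replicate 1. The HSP90 sum went the other way, with 1338 TPM in replicate 2, against 1809 TPM in replicate 1. Group sums thus differed in direction. TRiC reached 1977 TPM in replicate 2, against 2156 TPM in replicate 1. Among these sums, HSP70 genes were closest in proportion, with 1426 TPM in replicate 2, against 1473 TPM in replicate 1. This ranking leaves out Hspa14 and Cct6a. The small and mitochondrial group was the lowest, at 534 TPM in replicate 2 and 494 in replicate 1. The top 20 of the 79 genes carried most of the total, with 80.8% of member TPM in replicate 2 and 90.3% in replicate 1.

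**Figure D1:**
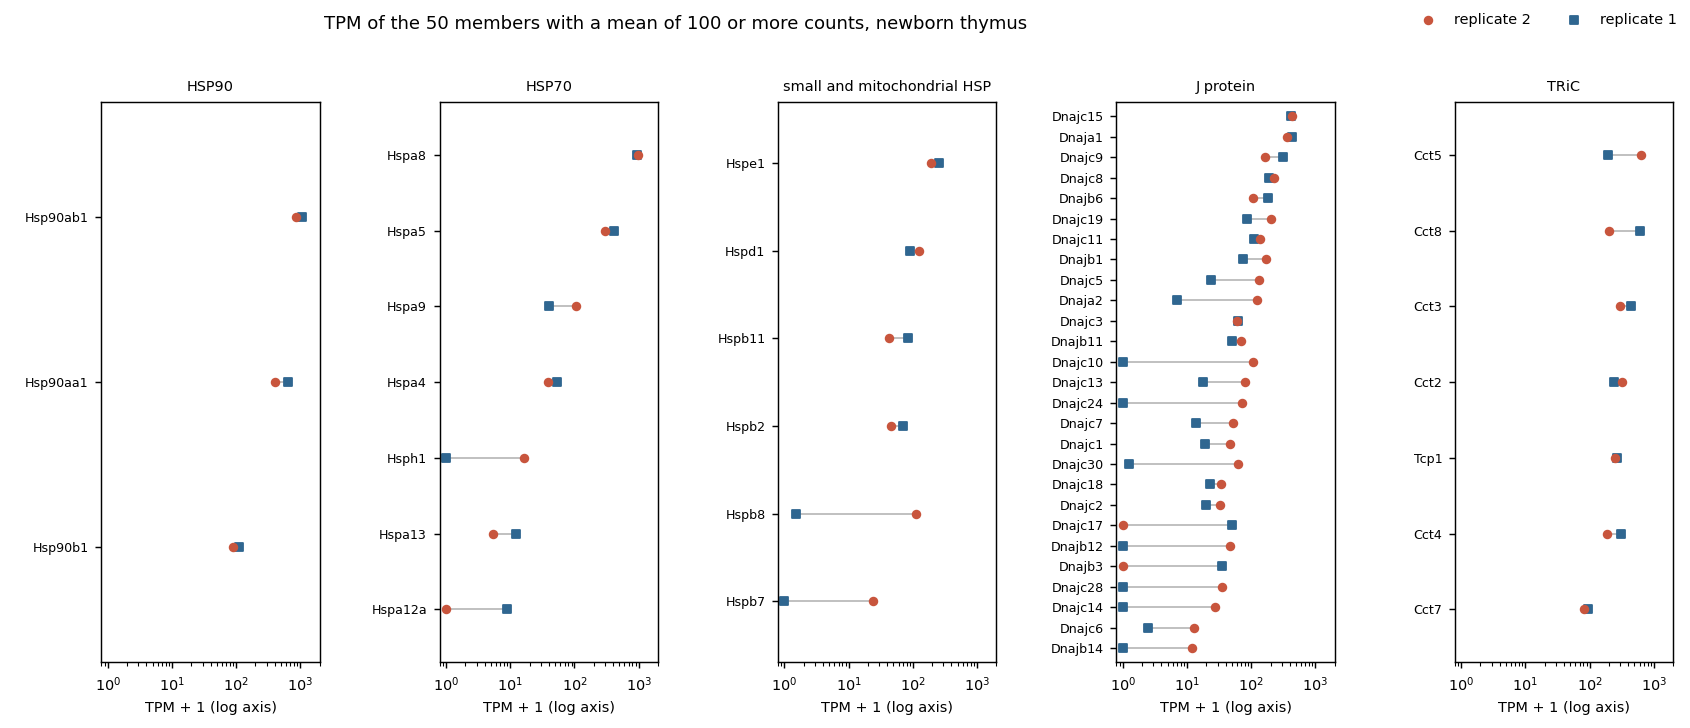
TPM + 1 on a log axis of the 50 members that averaged at least 100 counts, by family, with replicate 2 as circles, replicate 1 as squares and a grey line joining them. All HSP90 genes and 7 TRiC genes are above 0 TPM in both libraries, with Cct5 and Cct8 apart in opposite directions, and several J proteins, Hsph1, Hspb7 and Hspa12a sit at 0 TPM in a single library.

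A larger share of members than of protein-coding genes at large was read in both libraries; no test of that difference was made. A gene was called read at 1 or more expected counts. Of the 79, 43 (54.4%) were read in both libraries, against 32.1% of all 21474 protein-coding genes. A further 13 were read in replicate 2 alone, 5 in replicate 1 alone and 18 in neither; 19.3% of protein-coding genes were read in a single library. All 3 HSP90 genes and 7 of 8 TRiC genes were read in both libraries. Only 5 of 13 HSP70 genes and 22 of 45 J protein genes were.

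**Figure D2:**
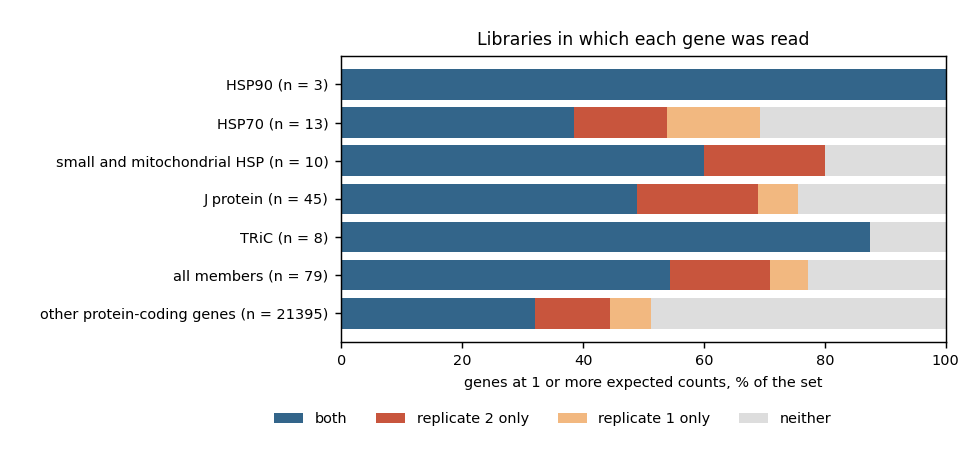
Share of each family, of all 79 members and of the other 21395 protein-coding genes read at 1 or more expected counts in both libraries, in replicate 2 alone, in replicate 1 alone or in neither. Both-library reading is 100% for HSP90, 87.5% for TRiC, 48.9% for J proteins and 38.5% for HSP70.

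The HSP90 family was dominated by its cytosolic forms. Hsp90ab1, the constitutive cytosolic HSP90 beta, had 852 TPM in replicate 2 and 1066 TPM in replicate 1. Hsp90aa1, the inducible HSP90 alpha, had 396 TPM in replicate 2 and 633 TPM in replicate 1. Beta therefore exceeded alpha in each library, by 2.15-fold in replicate 2 and 1.68-fold in replicate 1. Hsp90b1 (GRP94), the ER form, had 89.9 TPM in replicate 2 and 110 TPM in replicate 1. All 3 were lower in replicate 2 by TPM, with a median log2 ratio of replicate 2 over replicate 1 of -0.32, where the median over all mouse genes was 0.17. For Hsp90ab1 that direction depended on length: its CPM gave a log2 ratio of 0.02, because its estimated effective length was 2306 bases in replicate 2 and 1677 in replicate 1. Trap1, the mitochondrial HSP90, lies outside the symbol rule and is counted below with the mitochondrial partners. Its direction was the opposite, with 93.3 TPM in replicate 2 and 46.1 TPM in replicate 1. A share of 38.0% of the 100-base words of Hsp90aa1 also occurred in other genes, chiefly Gm12346, so its count rests partly on how such reads were assigned. The authors' posterior SD of that count was small, at 0.0714% of it in replicate 2 and 0.0884% in replicate 1.

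Among HSP70 genes, the constitutive cytosolic form and the ER form were read strongly in both libraries. The mitochondrial form was lower, and the classical inducible pair was not detected. Hspa8 (HSC70), the constitutive cytosolic HSP70, had 968 TPM in replicate 2 and 950 TPM in replicate 1, and ranked 125 among protein-coding genes by mean TPM. It stood level with Hsp90ab1, at rank 126. Other genes, chiefly Gm26825, shared 28.5% of its 100-base words. Hspa5 (BiP), the HSP70 of the ER, had 294 TPM in replicate 2 and 413 TPM in replicate 1. Hspa9 (mortalin), the mitochondrial form that drives protein import, had 106 TPM in replicate 2 and 38.6 TPM in replicate 1. Hspa8 thus exceeded Hspa9 by 9.11-fold in replicate 2 and 24.6-fold in replicate 1.

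The remaining HSP70 genes were low, or split between libraries. Hspa4, an HSP110-type exchange factor, had 37.9 TPM in replicate 2 and 51.7 TPM in replicate 1. Its relative Hsph1 (HSP105) had 1198 counts in replicate 2 and 0 in replicate 1, at least 325-fold higher in replicate 2 by CPM, against a limit of 3 counts per library. Hspa12a, a distant HSP70 relative, had 0 counts in replicate 2 and 905 in replicate 1, at least 370-fold lower in replicate 2. These genes show opposite directions in the same libraries. Hspa13 (STCH), a microsomal HSP70, had 4.43 TPM in replicate 2 and 11.1 TPM in replicate 1.

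Hspa1a and Hspa1b, which encode the strongly heat-inducible HSP70, had 0 counts in both libraries. They lie next to each other on chromosome 17 with 9951 bases between them, and their promoter windows differ at 4 of 300 bases. Each shares 100-base words with the other (56.5% of those of Hspa1a and 49.9% of those of Hspa1b), and neither was assigned a read. Their neighbour Hspa1l and the testis HSP70 gene Hspa2 were also at 0 in both libraries. Hspa12b had 2 counts in replicate 2 and 0 in replicate 1, and Hspa4l had 0 in replicate 2 and 1 in replicate 1.

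Hspa14, an HSP70 that acts at the ribosome, matched the symbol rule, but its M21 gene identifier was not in the tables. Its 6 transcripts stood under another identifier, which M21 names Gm45902. Summed from them, it had 6064 counts (155 TPM) in replicate 2 and 0 in replicate 1, at least 1647-fold higher in replicate 2. It was kept outside the 79 genes and outside the sums above.

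All TRiC genes but Cct6b were read in both libraries, at unequal levels. Each ring of the complex holds a single copy of every subunit. Tcp1, the alpha subunit, had 252 TPM in replicate 2 and 270 TPM in replicate 1, and was nearly level between them. Cct2 (beta) had 314 TPM in replicate 2 and 240 TPM in replicate 1. Cct3 (gamma) had 297 TPM in replicate 2 and 437 TPM in replicate 1. Cct4 (delta) had 185 TPM in replicate 2 and 306 TPM in replicate 1. Cct2 was thus the higher in replicate 2, and Cct3 and Cct4 were the lower. Cct7 (eta) was the lowest of those read, with 81.9 TPM in replicate 2 and 92.7 TPM in replicate 1.

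Cct5 and Cct8 moved in opposite directions. Cct5 (epsilon) had 643 TPM in replicate 2 and 196 TPM in replicate 1, a log2 ratio of 1.71. Cct8 (theta) had 203 TPM in replicate 2 and 615 TPM in replicate 1, a log2 ratio of -1.59. Counts gave the same directions, with 24567 for Cct5 and 9400 for Cct8 in replicate 2, and 7131 for Cct5 and 21845 for Cct8 in replicate 1. The order of subunits therefore changed between the libraries: the highest over the lowest was 7.85-fold in replicate 2 and 6.64-fold in replicate 1, and 4.80-fold on the means (Cct5 over Cct7). By mean TPM the order ran Cct5, Cct8, Cct3, Cct2, Tcp1, Cct4 and Cct7. Neighbours in that order differed by less than the spread between libraries, except that Cct7 lay below Cct4 in each.

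Subunit zeta has a pair of genes. Cct6b, known in mouse as the testis form, had 0 counts in both libraries, as did all 8 male germ cell markers. Cct6a, the general form, is typed as a processed transcript in M21 and as protein-coding in RefSeq, so it fell outside the rule; it had 272 TPM in replicate 2 and 153 TPM in replicate 1.

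**Figure D3:**
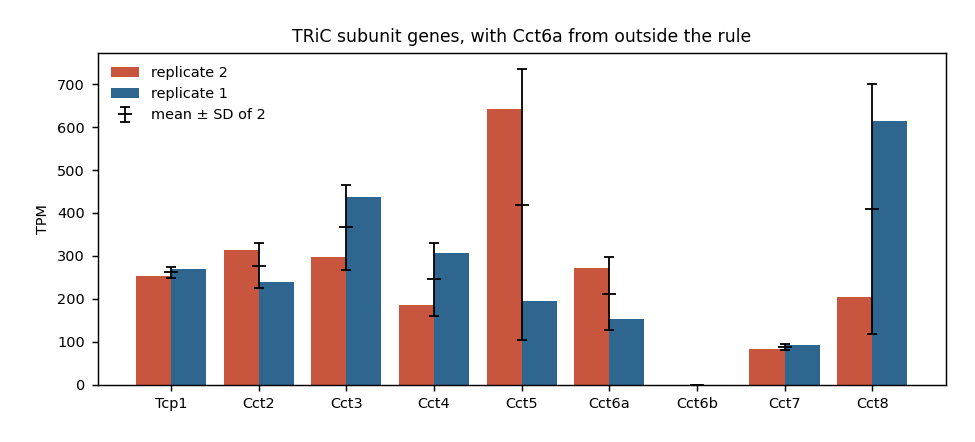
TPM of each TRiC subunit gene, with Cct6a from outside the rule, as bars for replicate 2 (left) and replicate 1 (right), and the mean ± SD of both as black marks. Cct5 is the highest in replicate 2 at 643 TPM and Cct8 in replicate 1 at 615 TPM, while Cct6b is at 0 in both.

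The mitochondrial chaperonin genes were read in both libraries. Hspe1 (HSP10) had 188 TPM in replicate 2 and 252 TPM in replicate 1. Hspd1 (HSP60) had 125 TPM in replicate 2 and 87.8 TPM in replicate 1. The transcript of the lid exceeded that of the barrel by 1.50-fold in replicate 2 and 2.87-fold in replicate 1, although the genes stand head to head. Hspd1 shares 23.9% of its 100-base words with other genes, chiefly the pseudogene Hspd1-ps3, which had 54 counts in replicate 2 and 44 in replicate 1.

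Small heat shock proteins, which hold unfolded proteins in a soluble state without ATP, included genes read almost entirely in a single library. Hspb8, known to work with Bag3 in selective autophagy, had 4379 counts (110 TPM) in replicate 2 and 19 counts (0.546 TPM) in replicate 1. Hspb7, best known from heart muscle, had 1424 counts in replicate 2 and 0 in replicate 1, at least 387-fold higher in replicate 2. Both were thus carried by replicate 2, the library with the lower summed TPM of heart and skeletal muscle markers (468, against 1603 in replicate 1; 13 of the 15 markers were read in both). That list was itself mixed, with 2 markers 4-fold higher in replicate 2 and 6 higher in replicate 1. The part of muscle cells in these values was not tested, and Bag3 was at 0 in both libraries.

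Hspb11, an intraflagellar transport protein counted with this family by name, had 41.9 TPM in replicate 2 and 84.6 TPM in replicate 1. Hspb2, a muscle small heat shock protein, had 44.3 TPM in replicate 2 and 69.5 TPM in replicate 1. It overlaps Cryab, the alpha B crystallin gene, over 30.2% of its exons on the opposite strand, and the strand setting of the counting is not given in the sources used here. Hspb1 (HSP25), a widely induced small heat shock protein, had 16 counts (0.865 TPM) in replicate 2 and 6 counts (0.342 TPM) in replicate 1. It was therefore close to the floor. Its window holds the letters of the heat shock element shown above, whose effect was not tested, and 44.0% of its 100-base words occur in other genes. Hspb6 had 7 counts in replicate 2 and 0 in replicate 1, and Hspb3 and Hspb9 were at 0 in both.

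J proteins formed the family with the most genes. Their summed TPM came chiefly from class C (1902 in replicate 2 and 1341 in replicate 1), which holds J domains in otherwise unrelated proteins. Class A reached 477 TPM in replicate 2 and 437 in replicate 1, and class B 408 TPM in replicate 2 and 338 in replicate 1. Dnaja1, a class A partner of cytosolic HSP70, had 356 TPM in replicate 2 and 431 TPM in replicate 1. Its paralogue Dnaja2 had 121 TPM (7672 counts) in replicate 2 and 6.08 TPM (340 counts) in replicate 1. Dnaja1 exceeded Dnaja2 by 2.93-fold in replicate 2 and by 70.9-fold in replicate 1, so the balance of the pair was set by Dnaja2.

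Dnajb1 (HSP40), the heat-inducible partner of HSP70, had 171 TPM in replicate 2 and 74.6 TPM in replicate 1. Dnajb6, which suppresses aggregation of polyglutamine proteins and carries the triple element shown above, had 107 TPM in replicate 2 and 181 TPM in replicate 1. Of the genes whose heat shock elements are shown, Hspe1 and Dnajb6 were thus read strongly in both libraries and Hspb1, Dnaja4 and Hspa1a were not. The shown genes are only part of the 18 carriers. Carriers of a pair alone ranged from Dnaja1, Cct2 and Cct5, read strongly in both libraries, to Dnajc27, Dnajc5g and Hspb3, at 0 in both. Hsph1, with a triple, had 0 counts in replicate 1. Dnaja4 had 1 count in replicate 2 and 0 in replicate 1.

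Dnajc9, a histone chaperone, had 163 TPM in replicate 2 and 317 TPM in replicate 1. Dnajc8, a component associated with the spliceosome, had 228 TPM in replicate 2 and 189 TPM in replicate 1. Dnajc9 and Dnajc8 thus differed in opposite directions. Dnajc2 (zuotin), which sits on the ribosome, had 32.1 TPM in replicate 2 and 18.7 TPM in replicate 1. Dnajc7, which carries TPR repeats and binds both HSP70 and HSP90, had 51.1 TPM in replicate 2 and 12.9 TPM in replicate 1.

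J proteins of mitochondria included the highest of the whole family. Dnajc15 (MCJ), an inner membrane protein known to restrain complex I, had 429 TPM in replicate 2 and 418 TPM in replicate 1, a mean of 424 ± 8.44. Its level was thus close between libraries, and its mean was next to that of Cct5 (419 ± 316). Dnajc19 (TIM14), part of the import motor, had 201 TPM in replicate 2 and 85.8 TPM in replicate 1. Dnajc11, associated with cristae, had 138 TPM in replicate 2 and 108 TPM in replicate 1. Both were read in each library, and the next was not read to any depth in replicate 1. Dnajc30, a mitochondrial protein linked to complex I, had 2185 counts in replicate 2 and 7 in replicate 1, and overlaps Bud23 over 26.2% of its exons on the other strand. Dnaja3 (TID1), a mitochondrial J protein that has been studied in thymocytes, had 0 counts in both libraries. The 9 mitochondrial members held 1284 TPM together in replicate 2, against 990 TPM in replicate 1.

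The 8 genes grouped as ER members were steadier in sum. They held 671 TPM together in replicate 2, against 663 TPM in replicate 1, a mean of 667 ± 5.88. Within them, Hspa5 was lower in replicate 2 and Dnajc10 was read there alone. The grouping leaves out Dnajb12, an ER membrane J protein, with 46.0 TPM in replicate 2 and 0 in replicate 1. It also leaves out its paralogue Dnajb14, with 11.2 TPM in replicate 2 and 0.0107 in replicate 1. Most of the 8-gene sum belongs to Hspa5 and Hsp90b1, given above. Dnajc3 (p58IPK), which inhibits the kinase PERK in some settings and acts with BiP, had 60.1 TPM in replicate 2 and 61.5 TPM in replicate 1. Dnajb11 (ERdj3) had 68.8 TPM in replicate 2 and 48.5 TPM in replicate 1. Dnajc1 (ERdj1) had 45.2 TPM in replicate 2 and 18.3 TPM in replicate 1. The 3 genes that carry the ER element in the sequences above were read in both libraries and differed by less than 2-fold in TPM. For Hspa5 this depended on length: by CPM it was 2.22-fold lower in replicate 2. Its effective length was 1445 bases in replicate 2 and 2097 in replicate 1. Dnajb11 and Dnajc1, not among the 3, were also read in both, and Dnajb11 also differed by less than 2-fold in TPM. Dnajb9 (ERdj4), a target of the unfolded protein response, had 60 counts in replicate 2 and 0 in replicate 1. Dnajc10 (ERdj5), a disulphide reductase, had 4731 counts (107 TPM) in replicate 2 and 0 in replicate 1, at least 1285-fold higher in replicate 2.

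Dnajc5 (cysteine string protein) had 131 TPM in replicate 2 and 22.6 TPM in replicate 1. Dnajc13 (RME-8), an endosomal protein, had 78.9 TPM in replicate 2 and 16.9 TPM in replicate 1. Dnajc18 had 32.7 TPM in replicate 2 and 21.9 TPM in replicate 1.

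Several J proteins had 100 or more counts in a library and 3 or fewer in the other, as did many other genes of their level (shares are given with the level bands). Dnajb12, an ER membrane J protein that faces the cytosol, had 3120 counts in replicate 2 and 0 in replicate 1, at least 848-fold higher in replicate 2. Its paralogue Dnajb14 had 2417 counts in replicate 2 and 2 in replicate 1, a ratio of 985 (95% exact counting interval 272 to 8137). Both paralogues were thus carried by replicate 2. Dnajc24, which takes part in diphthamide synthesis, had 1628 counts in replicate 2 and 0 in replicate 1, at least 442-fold higher in replicate 2. Dnajc28, another mitochondrial member, had 1426 counts in replicate 2 and 0 in replicate 1, at least 387-fold higher in replicate 2. The split did not run in 1 direction alone. Dnajc17 had 0 counts in replicate 2 and 542 in replicate 1, at least 222-fold lower in replicate 2. Dnajb3, described in mouse as a testis gene, had 0 counts in replicate 2 and 671 in replicate 1, at least 274-fold lower in replicate 2. None of the 8 male germ cell markers had a count in either library. Dnajc14, whose exons overlap other genes on the other strand over 19.1% of their length, had 2477 counts in replicate 2 and 1 in replicate 1, a ratio of 2019 (362 to 79763). Dnajb4, a cytosolic partner of HSP70, had 144 counts in replicate 2 and 1 in replicate 1, a ratio of 117 (20.7 to 4667).

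To size these differences, genes averaging at least 100 counts were compared on log2(TPM + 1), a scale that understates changes of low genes. Of 50 such members, 17 (34.0%) differed by 4-fold or more between the libraries, 14 being higher in replicate 2 and 3 higher in replicate 1. Of all 9341 mouse genes past that minimum, 50.9% differed so, with 29.4% higher in replicate 2 and 21.5% higher in replicate 1. J proteins gave 13 of those 17 calls, among 27 tested (48.1%), with 11 higher in replicate 2 and 2 higher in replicate 1. HSP90 gave 0 of 3 and TRiC 0 of 7, HSP70 gave 2 of 7 and the small and mitochondrial group 2 of 6. The J protein share is near the background, and 21 of its 27 genes (77.8%) were higher in replicate 2, against 4953 of the 9341 mouse genes (53.0%); no test of that difference was made. The median log2 ratio was 1.22 for J proteins, -0.44 for HSP70, 0.05 for the small and mitochondrial group and -0.18 for TRiC, beside 0.17 for all mouse genes. With scaling by TMM or DESeq2 size factors, the HSP70 median was -0.10 or -0.06, and the small and mitochondrial median changed sign, to -0.05 or -0.01.

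Level went with these differences, as for other genes. None of the 21 members averaging at least 100 TPM was 4-fold apart or had 3 or fewer counts in a library, against 10.5% and 1.90% of 1787 other protein-coding genes at that level. Between 50 and 100 TPM, 4 of 10 members (40.0%) were 4-fold apart, against 31.2% of 1558 other protein-coding genes. Between 20 and 50 TPM, 3 of 10 members had 3 or fewer counts in a library, against 41.0% of other genes, and between 5 and 20 TPM 6 of 8 did, against 59.3%. No test of these shares was made.

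**Figure D4:**
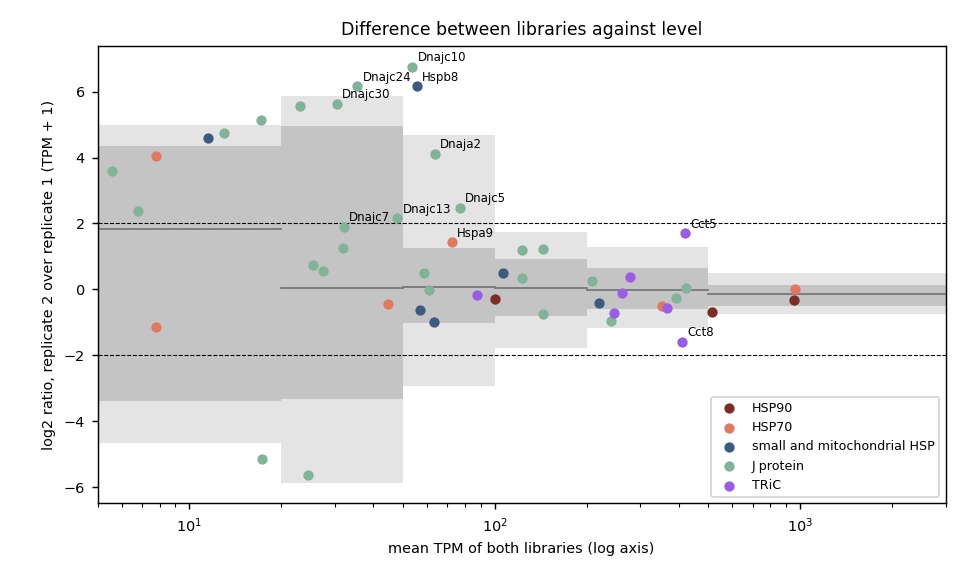
Log2 ratio of replicate 2 over replicate 1 (TPM + 1) against mean TPM on a log axis, for members with 100 or more mean counts and 5 or more TPM; grey boxes give the middle 80% and 50% and the lines the median of other protein-coding genes in each level band, and dashed lines mark 4-fold. Every member above 100 TPM lies inside the dashed lines, and Dnajc10, Dnajc24 and Hspb8 lie above a log2 ratio of 6.

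The transcript tables added which isoform carried each gene. Of the 37 members with 100 or more counts in each library, 28 had the same top transcript in both and 9 did not. In 20 of the 37, transcripts of protein-coding type held 90% or more of the gene's TPM in each library. In 8 they held under 50% in at least 1 library: Cct3, Dnajc1, Dnajc11, Dnajc15, Dnajc2, Dnajc5, Dnajc7 and Hspa5. Dnajc15, the highest J protein, was listed with a single transcript, typed as nonsense-mediated decay in M21, so that type covers all of its reads. Dnajc2 was mostly of retained intron type, at 86.7% of its TPM in replicate 2 and 74.8% in replicate 1.

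Short transcripts weigh more in TPM than in counts. Coding transcripts of Hspa5 held 46.8% of its TPM in replicate 2 and 80.1% in replicate 1, but 82.7% of its counts in replicate 2 and 96.3% in replicate 1. Coding transcripts of Hsp90ab1 held 93.8% of its TPM in replicate 2 and 59.2% in replicate 1. A coding transcript of Hsp90aa1 of 711 bases held 60.5% of the gene's TPM in replicate 2 and 56.3% in replicate 1, while its coding transcript of 3281 bases held 27.4% in replicate 2 and 17.0% in replicate 1. For Cct8, a decay-type transcript held 0% of the TPM in replicate 2 and 29.0% in replicate 1. Effective length differed by over 10% between libraries in 14 of the 37 genes, and the sign of the ratio differed between CPM and TPM in 3 of them (Hsp90ab1, Hspa8 and Dnajc15), all near a ratio of 1.

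**Figure D5:**
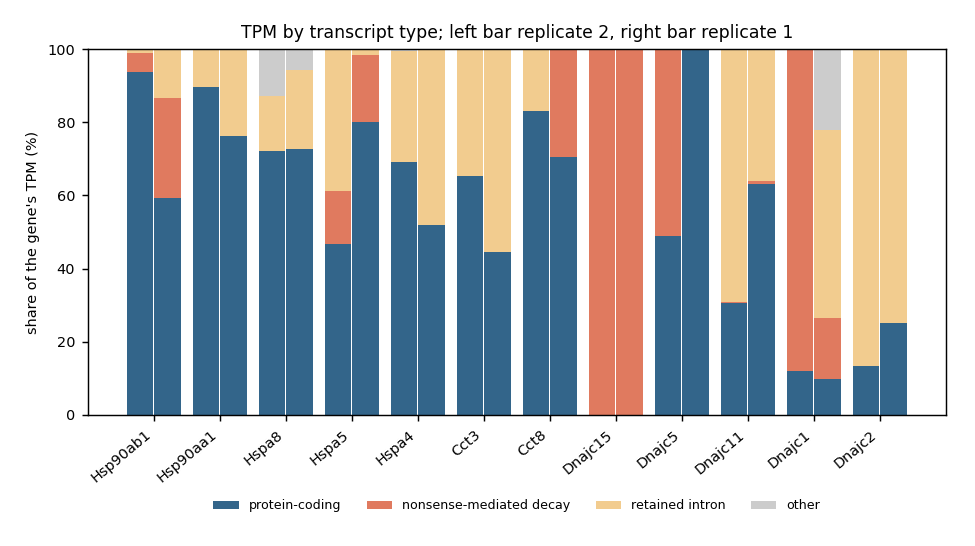
Share of each gene's TPM by GENCODE M21 transcript type for 12 members, left bar replicate 2 and right bar replicate 1. Dnajc15 is entirely of nonsense-mediated decay type in both libraries, and the coding share of Hsp90ab1 is 93.8% in replicate 2 and 59.2% in replicate 1.

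Most of the listed partners of these chaperones were read in both libraries at 1 or more counts, against 32.1% of all protein-coding genes. No test of that difference was made. The rule includes Unc45a, Stub1, Grpel2, Clpp and Pdcl, each with 3 or fewer counts in a library and 306 or more in the other. Of 18 HSP90 co-chaperones, 16 were read in both libraries, with summed TPM of 1489 in replicate 2 and 1639 in replicate 1. The list's 2 highest genes differed in opposite directions. They were Nudc, with 241 TPM in replicate 2 and 193 in replicate 1, and Ptges3 (p23), with 84.6 TPM in replicate 2 and 306 in replicate 1. Cdc37l1 was read in replicate 2 alone and Chordc1 in replicate 1 alone. Of 14 HSP70 co-factors, 11 were read in both, with sums of 567 TPM in replicate 2 and 573 in replicate 1. They were led by St13 (HIP), with 116 TPM in replicate 2 and 126 in replicate 1, and by Stub1 (CHIP), with 158 TPM in replicate 2 and 0.0321 TPM, from 1 count, in replicate 1. Stub1 was thus carried by replicate 2. Bag1 (3 counts) and Bag2 (2 counts) were read in replicate 2 and were at 0 in replicate 1.

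The list of TRiC partners held prefoldin subunits, phosducin-like proteins (the Pdcl genes and Txndc9) and tubulin cofactors, with 12 of 15 read in both libraries and sums of 1500 TPM in replicate 2 and 1471 in replicate 1. Their highest members were Tbca, with 239 TPM in replicate 2 and 144 in replicate 1, and Pfdn6, with 162 TPM in replicate 2 and 200 in replicate 1. Tbcc and Tbcd were read in replicate 2 alone. Of 7 mitochondrial partners 6 were read in both, and their sum was 403 TPM in replicate 2, against 508 TPM in replicate 1. Lonp1, the matrix protease, had 80.8 TPM in replicate 2 and 119 TPM in replicate 1, and Clpx, a matrix unfoldase, had 127 TPM in replicate 2 and 63.0 TPM in replicate 1. Clpb had 1 count in replicate 2 and 0 in replicate 1.

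The transcription factors behind the heat shock response were low. Hsf1, the main stress-responsive factor, had 536 counts (12.1 TPM) in replicate 2 and 0 in replicate 1. Hsf2 had 9 counts in replicate 2 and 228 in replicate 1, and Hsf4 and Hsf5 were at 0 in both. Hsbp1, a small protein that binds heat shock factor, was the highest of the list, with 414 TPM in replicate 2 and 253 TPM in replicate 1.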

How the data were processed

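RNA-seq of newborn thymus was taken from 1 gene table and 1 transcript table per library. The deposited expected counts (estimated reads per gene, not normalized) and TPM came from the authors, per the file headers, whose column names are those that RSEM writes; the transcript tables also give, per the file headers, the percent of a gene's TPM held by each transcript. The assembly was mm10 and the annotation M4, per the deposited text notes. The aligner, the program and its strand setting were not given in the sources used here. Effective length was the length less 99 bases. The tables list 43346 mouse genes, 96 spike-ins and 26249 other entries; only mouse genes were used.

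Symbols and types came from GENCODE M21, which matched 42462 mouse identifiers by gene ID. TPM was rescaled to 1000000 over mouse genes. Ratios are replicate 2 over replicate 1 on log2(TPM + 1), and 4-fold calls need a mean of 100 or more counts; per-million count folds use a limit of 3 counts. The number of reads limits the precision; no p-value was computed, since there is 1 group. Pups are separate animals, but the spread also holds RNA handling and library making. The scripts were tested on simulated data.

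The symbol rule for the members used no measured value. That rule, the partner and marker lists, and the ER and mitochondrial groupings were set with earlier results of these data known. Named were all HSP90, HSP70, small, mitochondrial and TRiC members with 10 or more counts in a library, the 20 J proteins of highest mean TPM, and up to 10 J proteins with 100 or more counts in a library and 3 or fewer in the other; others named were picked after their values were seen. Shared sequence is the share of a gene's 100-base transcript words found in another gene. Of 14 pseudogenes of any type matching the symbols, 10 were in the tables and 3 were read, with 94 counts in replicate 2 and 56 in replicate 1. Genes of other names, such as Gm12346 and Gm26825, are outside that count. Alternatives used other pseudocounts, minimums and folds, posterior means, other scalings (edgeR 4.0.16 TMM, DESeq2 1.42.0 size factors, in R 4.3.3) and single libraries. Python 3.11.15, numpy 2.4.6 and pandas 2.3.3 were used.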

Additional observations from a re-analysis of the deposited data

How the results depend on the processing

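With a single library left, the TPM sums ranged from 1338 to 1809 for HSP90, 1426 to 1473 for HSP70, 494 to 534 for the small and mitochondrial group, 2117 to 2787 for J proteins and 1977 to 2156 for TRiC. With spike-ins kept in the total, the sums were 1356 for HSP70, 481 for the small and mitochondrial group and 1933 for TRiC, by the construction of that scale; without mitochondrial genes in the total, HSP70 was at 1511. Chosen after seeing the data, adding Hspa14 gave HSP70 a mean of 1527 and adding Cct6a gave TRiC a mean of 2278. Both genes were higher in replicate 2. Members 4-fold apart numbered 17, and 13 to 25 under other pseudocounts, folds, scalings and estimates. The 13 came with a pseudocount of 5 TPM (26% of members tested, against 38.8% of all mouse genes). The 25 came at 2-fold (50%, against 67.7%). With no count minimum, 17 of 79 members were called (21.5%, against 11.9% of all mouse genes), so the order of the shares reversed. At a mean of 1000 or more counts there were 9 of 37 tested (24.3%, against 35.7% of all mouse genes). Both of those shares were below the 34.0% and 50.9% of the main setting. Members read in both libraries numbered 37 to 43 under every detection rule run. The J protein median log2 ratio lay between 1.14 and 1.26 except with no count minimum (0.05), which adds the unread genes; the HSP70 median was -0.10 with TMM, -0.06 with DESeq2 and 0 with no minimum. Under posterior means, the share of the top transcript moved by more than the spread between libraries in 4 of 38 genes (Cct6a included), by at most 1.90 percentage points; Dnajc6 changed by 33.9 points, within its spread. No paired analysis was possible because the study has 1 group. Depth limits low genes: a value of 0 allows up to 3 counts, a limit that covers the counting of reads only.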

Other observations

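Cryab, the alpha B crystallin gene that neighbours Hspb2, had 2938 counts (117 TPM) in replicate 2 and 1 count (0.0428 TPM) in replicate 1, while Hspb2 had 758 counts in replicate 2 and 1052 in replicate 1. Cryaa, the alpha A crystallin gene, had 1237 counts in replicate 2 and 0 in replicate 1. Both crystallins belong to the small heat shock protein superfamily without carrying its symbol, and both were picked after their values were seen. They and Hspb7 and Hspb8 were read almost entirely in replicate 2, whereas Hspb2 and Hspb11 were read in both libraries.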
